A study of Ananas comosus with 8 samples.

Results

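The white base of the pineapple leaf expressed 292 genes, at 3 FPKM or more, that were listed at 0 in the green tip. They were chosen by these 2 values alone, a white base FPKM of 3 or more and a green tip FPKM equal to 0, out of 27024 genes in the matrix. They made up 1.996% of the 14629 genes at 3 FPKM or more in the white base. FPKM divides the fragments counted on a gene by its transcript length and by the size of the library. Because both values served to choose the genes, neither is tested here, and each is given as a description.

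The plant was the pineapple cultivar MD-2 (*Ananas comosus*), and RNA of 2 parts of its 'D' leaf was compared, the white base and the green tip. Each tissue has 2 RNA-seq libraries in the labels, which state no hour of sampling, and 4 BS-seq libraries were not analysed here. The study sampled leaves at several hours of a day, with 2 RNA-seq libraries per tissue at 1 of these hours and more at the others. Whether the libraries here are of that hour is not stated in the labels and was not tested. For most DNA methylation genes that the study printed by hour, the white base value here was nearest that of this hour. A green tip value of 0 may thus hold for only part of the day. The matrix holds 1 FPKM value per gene and tissue, so no value below has a replicate, an SD or a test, and the depth behind it is unknown. A level of 0 in the green tip therefore cannot be told apart from a level too low for these libraries to show, and in a tissue piece fewer cells of a type cannot be told apart from less RNA per cell.

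The white base is the non-photosynthetic part of the leaf. In leaves of monocots, new cells arise at the base and are displaced towards the tip as they mature, and the exposed green tip carries out photosynthesis. Pineapple fixes CO2 at night by crassulacean acid metabolism (CAM), in which PEP carboxylase (PEPC) fixes the carbon that beta carbonic anhydrase (beta-CA) supplies as bicarbonate, and pyruvate orthophosphate dikinase (PPDK) recycles pyruvate by day. These enzymes served as a check of the labels. PPDK (Aco024818) had 5.81 FPKM in the white base and 396 FPKM in the green tip. The beta-CA genes had 0.485 FPKM (Aco006181) and 9.68 FPKM (Aco005402) in the white base, against 136 and 198 FPKM in the green tip. PEPC (Aco010025) had 239 FPKM in the white base and 633 FPKM in the green tip. All 4 were lower in the white base. This does not hold for every gene of these families. Of the 5 PEPC genes the study lists, 3 were higher in the white base, Aco018093 with 79.95 FPKM in the white base and 41.3 FPKM in the green tip, Aco016429 with 41.2 and 7.59 FPKM, and Aco022525 with 13.5 and 10.98 FPKM. The listed beta-CA genes (3) and PPDK genes (2) were all lower in the white base.

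In total the white base listed 6426 genes at 0 and the green tip 7361, and 5758 were at 0 in both. Of the 1603 genes listed at 0 in the green tip alone, 18.2% reached 3 FPKM in the white base and so entered the set. For the reverse pattern, 77 genes were listed at 0 in the white base and had 3 FPKM or more in the green tip, 0.565% of the 13632 genes at that level there. The summed FPKM was 611241 in the white base and 1136442 in the green tip, so the same FPKM limit is not the same share of the 2 columns. Among genes under 0.1 FPKM the most frequent ratio of white base to green tip was 0.758 (17 of 226 genes within 0.01 on the log2 scale, and 7 more at 0.379). The part of this ratio and of the sums in the counts of 292 and 77 genes was not tested.

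Most of the 292 genes were low in the white base. Their values spanned 3.003 to 584 FPKM around a median of 8.23 FPKM, and the middle of the distribution, from the 25th to the 75th percentile, lay between 4.48 and 17.3 FPKM. The 14337 genes at 3 FPKM or more in the white base that were above 0 in the green tip had a median of 17.6 FPKM, with 8.98 and 36.6 FPKM as the same percentiles. The 292 genes thus lay lower than these, and 32.5% of them were between 3 and 5 FPKM, where 9.64% of the other genes lay. Low levels were not particular to a green tip value of 0. Of the other genes, 12550 had 3 FPKM or more in the green tip, with a median of 19.02 FPKM in the white base. The 490 genes above 0 but under 0.5 FPKM in the green tip had a median of 10.9 FPKM in the white base, and the 1297 genes from 0.5 to under 3 FPKM there a median of 7.30 FPKM, below that of the 292 genes. The 77 genes of the reverse pattern had a median of 5.77 FPKM in the green tip. Together the 292 genes held 6659 FPKM, or 1.09% of the summed FPKM of the white base. The 10 highest of the 292 genes held 36.4% of that amount.

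**Figure D1:**
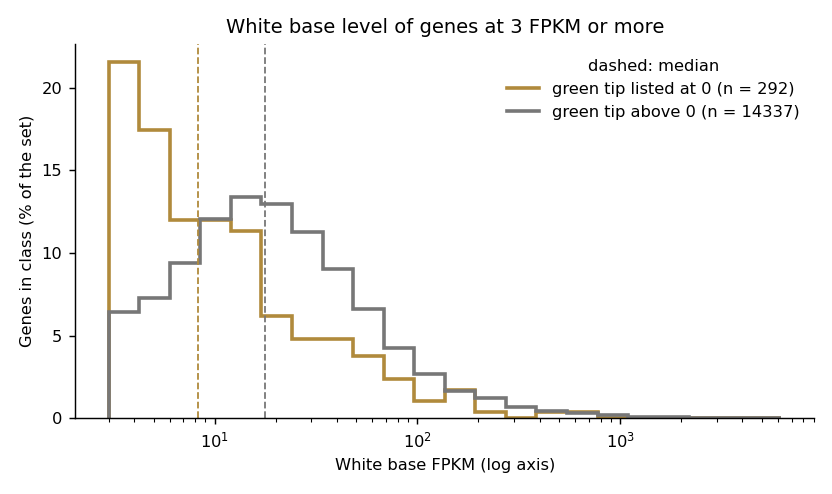
Distribution of white base FPKM (log axis) for the 292 genes listed at 0 in the green tip and the 14337 genes above 0 there, as percent of each set per class. Dashed lines mark the medians of 8.23 and 17.6 FPKM, so the curve of the genes listed at 0 lies to the left.

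The share of genes listed at 0 in the green tip was lower in each higher class of white base FPKM up to 100 FPKM. It was 6.43% (95 of 1477 genes) from 3 to 5 FPKM and 2.53% (71 of 2804) from 5 to 10 FPKM. From 10 to 30 FPKM it was 1.33% (78 of 5843), from 30 to 100 FPKM 1.06% (37 of 3496), and at 100 FPKM or more 1.09% (11 of 1009). A level well above the limit in the white base thus did not bring the share to 0. The genes closest in pattern are the 490 near-silent genes. They had 3 FPKM or more in the white base and a green tip value above 0 but under 0.5 FPKM. The study took genes above 0.5 FPKM as expressed when it compared its data with public data. The share of near-silent genes was 7.58% from 3 to 5 FPKM, 2.05% from 10 to 30 FPKM and 3.77% at 100 FPKM or more. At 100 FPKM or more, 38 genes were near-silent, of which 36 had at least 0.1 FPKM in the green tip, beside the 11 listed at 0.

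**Figure D2:**
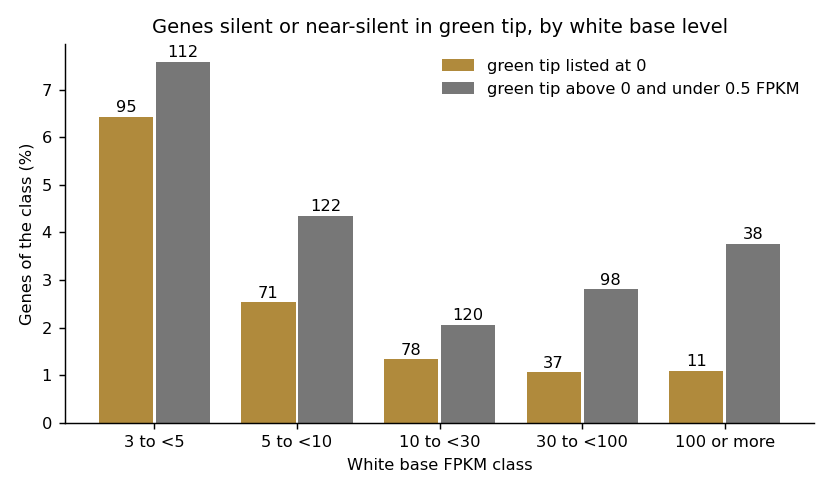
Percent of genes in each class of white base FPKM that were listed at 0 in the green tip, and that were above 0 but under 0.5 FPKM there. The numbers above the bars are genes, from 95 and 112 in the lowest class to 11 and 38 in the highest.

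At the limit of 3 FPKM the set passes into genes just below it without a gap. The lowest 4 genes inside, Aco008114, Aco028675, Aco030305 and Aco031136, had the same value of 3.003 FPKM in the white base. The highest genes outside, also listed at 0 in the green tip, were Aco010703 with 2.96 FPKM, Aco026118 with 2.93 FPKM and Aco002529 with 2.93 FPKM in the white base. The limit on the green tip side is equally close. Of the genes at 3 FPKM or more in the white base, the lowest green tip values above 0 were 0.0150 FPKM for Aco008630, 0.0159 FPKM for Aco027408 and 0.0175 FPKM for Aco013649, which had 24.5, 17.9 and 9.61 FPKM in the white base. Only 47 genes had a green tip value above 0 and under 0.05 FPKM, the highest in the white base being Aco007375 with 151 FPKM and 0.0203 FPKM in the green tip. Aco018534 and Aco000629 followed with 49.5 and 45.9 FPKM in the white base, and 0.0471 and 0.0416 FPKM in the green tip.

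The 2 highest genes stood far above the others. Aco007113 had 584 FPKM and Aco012034 had 518 FPKM in the white base, 16.6% of the summed white base FPKM of the 292 genes. Then came Aco021293 with 207 FPKM and Aco007229 with 185 FPKM, and Aco023690, Aco027459 and Aco015509 at 167.7, 167.6 and 167.5 FPKM. The last of the 10 highest were Aco029113 with 163 FPKM, Aco012102 with 135 FPKM and Aco026780 with 128 FPKM. All were listed at 0 in the green tip by the rule. Neither the matrix nor the study's text gives these genes a name, and none of the matrix's identifiers matched the RefSeq table of pineapple genes, so no function can be stated for them.

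Genes with identifiers next to those of the 10 highest differed from case to case. The files give no coordinates, so whether consecutive identifiers are neighbours on a chromosome was not tested. Aco012034 stood between a pair of genes of nearly the same pattern, Aco012033 with 566 FPKM in the white base and 0.679 FPKM in the green tip, and Aco012035 with 498 and 0.349 FPKM. The 3 genes differed little in the white base, and only the middle one was listed at 0 in the green tip. Beside Aco026780, Aco026779 had 184 FPKM in the white base and 0.0848 FPKM in the green tip, and beside Aco007229, Aco007228 had 67.4 and 0.122 FPKM. These and the other neighbours were named after their values were seen. Such a neighbour, near-silent and high in the white base, was not next to the highest gene. Aco007112, below Aco007113, had 19.8 FPKM in the white base and 7.63 FPKM in the green tip, and Aco007114, above it, was listed at 0 in both tissues. Over the 10 highest genes, 18 genes outside the set stood at a consecutive identifier, of which 3 were listed at 0 in both tissues and 11 had a mean of the tissues over 0.5 FPKM. Taking 2-fold on FPKM + 1 as the limit, of these 11 genes 6 were higher in the white base, 0 lower and 5 in between, and the 6 stood beside 5 of the 10 genes. At 2 steps, 5 of 17 such genes were higher in the white base and 2 lower. Over all 18372 genes with a mean over 0.5 FPKM, 20.7% passed the same limit as higher and 17.2% as lower. The counts of 11 and 17 genes are small, and their difference from these shares was not tested. Between the 2 lower genes at 2 steps, Aco015511 was the lower by ratio, with 4.46 FPKM in the white base and 95.5 FPKM in the green tip. Genes in between included Aco015510 with 17.6 FPKM in the white base and 27.6 FPKM in the green tip, and Aco021292 with 6.58 and 8.96 FPKM.

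**Figure D3:**
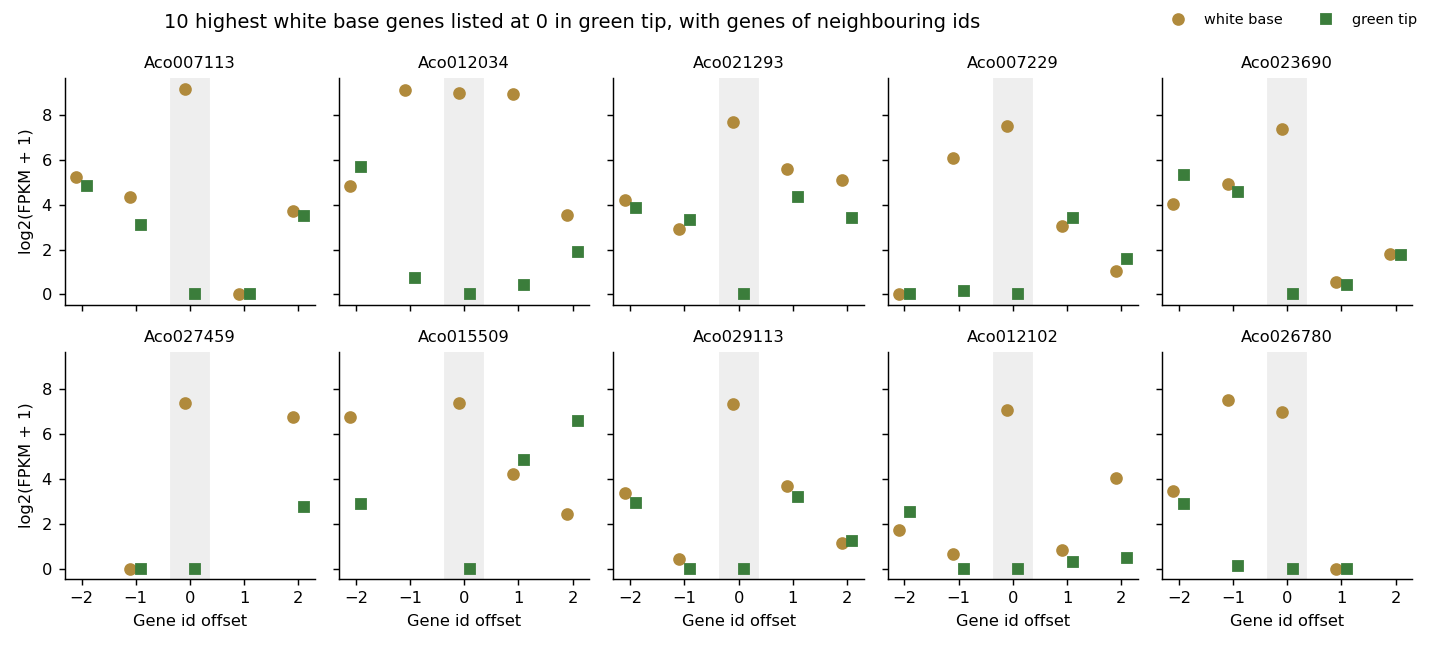
Log2(FPKM + 1) in the white base (circles) and the green tip (squares) for the 10 highest genes (shaded, at offset 0) and the listed genes up to 2 identifiers away. Genes at either side of Aco012034 and below Aco007229 and Aco026780 show a wide gap between white base and green tip, and at 2 identifiers away 2 of 17 genes are at least 2-fold lower in the white base.

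Among the 292 genes, 20 had a gene of the same set at a consecutive identifier. They formed 10 pairs, and no run was longer than 2. This is 6.85% of the set. Among the genes above 0 in the green tip, weighted to the white base levels of the set in 10 classes, 2.18% had a gene of the set at a consecutive identifier. Of the 490 near-silent genes, 27 (5.51%) had one, a share nearer to that of the set. No test was made of these differences. When only genes at 10 FPKM or more in the white base were taken, both as set and for matching, the shares were 6.35% and 0.940%.

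The members of a pair often differed in level. In the pair Aco010007 and Aco010008 the white base values were 52.0 and 32.5 FPKM, and in Aco013429 and Aco013430 they were 34.0 and 54.4 FPKM. Aco010694 and Aco010695 had 64.1 and 13.7 FPKM in the white base, and Aco003243 and Aco003244 had 3.99 and 58.5 FPKM. Within these 4 pairs the gap thus ran from below 2-fold to above 10-fold. The lowest pair was Aco007943 and Aco007944, with 3.67 and 5.25 FPKM. The other 5 pairs, with identifiers that start at Aco001279, Aco005614, Aco012525, Aco015414 and Aco016530, lay between 4.74 and 24.1 FPKM in the white base.

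Some runs became longer when near-silent genes were counted too, as adding genes can only lengthen them. Of the 292 genes, 27 had a near-silent gene at a consecutive identifier (9.25%), against 3.53% of the genes above 0 in the green tip at matched white base FPKM. With either kind of neighbour the shares were 15.8% (46 genes) and 5.70%. The 782 genes at 3 FPKM or more in the white base and under 0.5 FPKM in the green tip formed 49 runs. Of these, 3 held 3 or more genes, and each of the 3 held at least 1 gene listed at 0. With 292 of the 782 genes listed at 0, runs of this length would often hold 1 in any case. The longest run had 4 genes. Its first gene, Aco010007, had 52.0 FPKM in the white base, Aco010008 had 32.5 FPKM, Aco010009 4.38 FPKM and Aco010010 15.0 FPKM. In the green tip Aco010009 had 0.0740 FPKM and the other 3 were listed at 0. The run Aco010244, Aco010245 and Aco010246 had 49.9, 41.4 and 67.4 FPKM in the white base, with 0.0869, 0.335 and 0 FPKM in the green tip. The run Aco003611, Aco003612 and Aco003613 was lower, with 18.1, 9.36 and 5.54 FPKM in the white base and 0.317, 0 and 0.0587 FPKM in the green tip.

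Looser groups also occurred. With a step of at most 5 between identifiers, 46 of the 292 genes had another within reach (15.8%, against 9.52% at matched white base FPKM), in 18 groups of 2, 2 groups of 3 and 1 group of 4. The group of 4 held the highest gene of all. It comprised Aco007108 with 74.1 FPKM, Aco007113 with 584 FPKM, Aco007118 with 3.11 FPKM and Aco007120 with 3.08 FPKM in the white base, so its members ranged from near the limit to the highest value of the set.

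Genes next to the set, which the rule did not choose, leaned towards the white base. For this comparison a log2 ratio of white base to green tip was taken on FPKM + 1, wherever the mean of the tissues was over 0.5 FPKM, and a gene was called at 2-fold or more. Of all 18372 genes tested, 20.7% were called higher in the white base and 17.2% were called lower. Counting each gene of the set with each tested neighbour outside the set as a pair, 115 of 372 neighbours (30.9%) were called higher in the white base and 49 (13.2%) lower. Beside genes above 0 in the green tip at matched white base FPKM, these shares were 19.5% and 16.4%. The median log2 ratio of the neighbours was 0.27, against 0.01 for all genes tested. These are shares of single values per tissue, and the difference between them has no test.

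The excess among neighbours was not particular to a green tip value of 0. Beside near-silent genes 30.5% of 668 neighbours were called higher in the white base, and beside genes from 0.5 to 3 FPKM in the green tip 27.3% of 1787. Beside genes at 3 FPKM or more in both tissues the share was 18.9% of 17917. The neighbours of the 292 genes and of the near-silent genes thus gave nearly equal shares.

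The excess was largest at identifiers 1 and 2 steps away. At 2 steps 28.6% of 370 neighbours were called higher in the white base, and at 3 and 4 steps 19.1% and 19.4%. Further out, up to 10 steps, the share moved between 17.6% and 27.1%, the highest of these at 9 steps, while at matched white base FPKM it stayed between 19.5% and 20.5% at all 10 distances. The scatter among distances with about as many pairs is thus large, and the value at 9 steps nearly equals that at 2 steps. Neighbours of genes under 10 FPKM in the white base and of genes at 10 FPKM or more gave 30.05% and 31.95%. Neighbours at identifiers below 18000 and from 18000 on gave 31.0% and 30.7%.

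**Figure D4:**
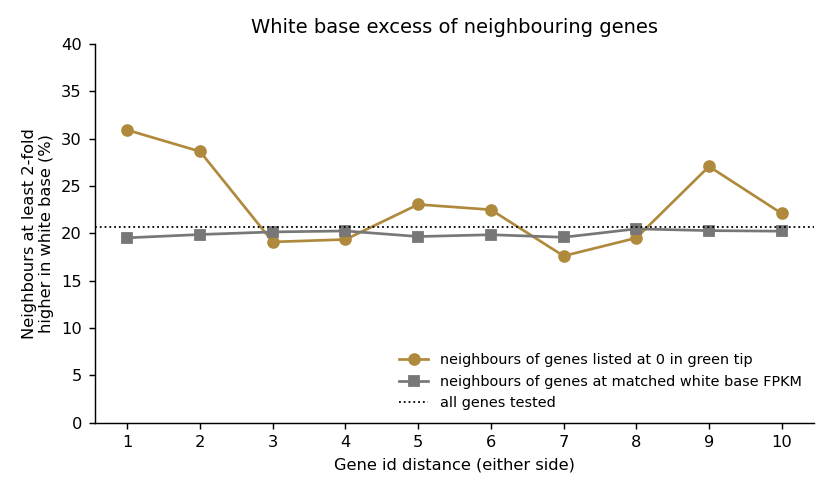
Percent of tested neighbours with a white base value at least 2-fold above the green tip, by distance between gene identifiers, for neighbours of the 292 genes and of genes at matched white base FPKM. The dotted line marks all genes tested, 20.7%. The 2 curves lie furthest apart at distances 1 and 2 (30.9% and 28.6% for the set). Beyond, the curve of the set scatters from 17.6% to 27.1%, with the next widest gap at distance 9.

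Expression in the white base was alike for neighbours of the set and neighbours of genes at matched white base FPKM. Of 499 neighbours outside the set, 61.5% were at 3 FPKM or more in the white base, against 62.1% at matched white base FPKM. Of all genes outside the set 53.6% were. A green tip value of 0 was found in 23.6% of the neighbours, against 18.6% at matched white base FPKM and 26.4% of all genes outside the set.

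The set was spread over the whole range of identifiers, and its share was higher among the last ones. Below identifier 18000, 202 of the 11023 genes at 3 FPKM or more in the white base were listed at 0 in the green tip (1.83%). From 18000 to 24000 it was 33 of 2003 (1.65%), and from 24000 on 57 of 1603 (3.56%). The highest share, 5.56% (19 of 342), was at identifiers from 30000 on. Genes with late identifiers were lower in the white base, with a median of 14.7 FPKM from 24000 on, against 18.1 FPKM below 18000. When each gene was given the share of its white base class, 35.7 genes would be counted from 24000 on, beside the 57 found, and 216 below 18000, beside 202. Genes listed at 0 in both tissues were also more frequent among late identifiers, at 42.1% from 24000 on and 12.1% below 18000, and their part in this difference was not tested. The reverse pattern, 0 in the white base with 3 FPKM or more in the green tip, was at 1.23% from 24000 on and 0.364% below 18000. None of the 10 pairs of consecutive identifiers lay beyond 18000.

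**Figure D5:**
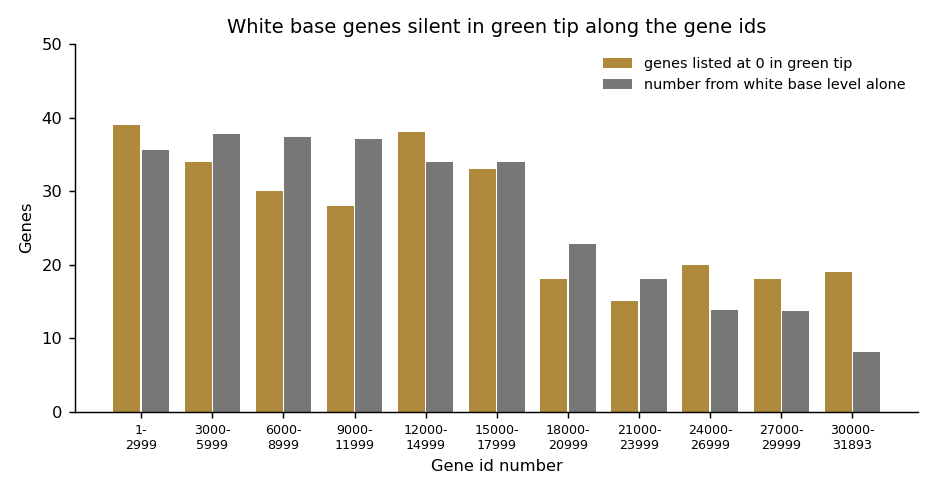
Number of genes listed at 0 in the green tip with 3 FPKM or more in the white base, in blocks of 3000 gene identifiers (the last block is shorter), beside the number obtained when each gene is given the share of its white base class. The last 3 blocks hold 20, 18 and 19 genes, above the 13.8, 13.7 and 8.15 of the white base level alone.

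None of the genes that the study names was in the set. The study's lists comprise 130 genes of DNA methylation, carbon fixation, CAM related transport, glycolysis and gluconeogenesis, the circadian clock and the MADS-box family, and 116 of them were at 3 FPKM or more in the white base. Over the lists, 14 of 123 genes tested were called higher in the white base and 38 lower, beside the 20.7% and 17.2% of all genes. The lists differed in direction, though in each the share called higher in the white base was below the 20.7% of all genes. Of the DNA methylation genes 6 of 39 were higher in the white base and 1 lower, with a median log2 ratio of 0.53. Of the carbon fixation genes 6 of 34 were higher and 11 lower, and of the transporter genes 2 of 17 and 8. Of the glycolysis and gluconeogenesis genes 0 of 18 were higher and 12 lower, with a median log2 ratio of -1.63. Of the clock genes 0 of 10 were higher and 5 lower, and of the MADS-box genes 0 of 5 and 1. The study picked these genes for their roles, so the lists are no sample of all genes.

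The gene of the lists closest to the set was CMT3 (Aco013381), which in *Arabidopsis* encodes a chromomethylase that maintains CHG methylation. It was the 1 listed gene at 3 FPKM or more in the white base and under 0.5 FPKM in the green tip, with 12.4 and 0.0488 FPKM. In the values the study printed by hour, CMT3 was at 0 in the green tip at 1 hour and above 0 at the others. The hour with the value of 0 was the one with the fewest RNA-seq libraries per tissue. Whether that value and the 0.0488 FPKM here come from the same libraries was not tested. In the white base it was above 3 FPKM at every hour. Whether CMT3 meets the rule thus depends on which values are used. Of the 4 listed genes at 0 in the green tip, none reached 3 FPKM in the white base. The alpha carbonic anhydrase gene Aco016727, of a family that interconverts CO2 and bicarbonate, had 1.89 FPKM. Aco005989, an NADP malic enzyme gene, a family that releases CO2 from malate, had 0.326 FPKM, and the transporter gene Aco010725 had 0.0765 FPKM. NRPE9B (Aco027798), a subunit of RNA polymerase V in *Arabidopsis*, was listed at 0 in both tissues.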

How the data were processed

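The matrix that the authors deposited holds FPKM values, 1 per gene and tissue, and a mean of both. By their methods, reads were trimmed with Trimmomatic, aligned with HISAT2, restricted to unique alignments and quantified with StringTie. The submitters' processing notes name TopHat2 2.1.0, Cufflinks and Cuffdiff 2.2.1 without their role, and how libraries were combined and which genome build was used are not given in the sources used here. The limits therefore apply to values whose estimation is not fully known, and a 0 may be a failed estimate. FPKM values are not counts, and low values gave only a most frequent ratio between the columns, so depth is unknown, and no interval or detection limit was calculated.

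Genes were ordered by the number in their identifier. The set was compared with the genes at 3 FPKM or more in the white base and above 0 in the green tip, class by class in 10 classes of white base FPKM with equal numbers of genes of the set, with weights by class, and with no random draw and no p-value. Log2 ratios of white base to green tip used a pseudocount of 1, which understates the change of low genes, and a mean over 0.5 FPKM. The 292 genes and the lists were chosen with earlier results of these data known. Named genes are the 10 highest, those of runs, those nearest the limits, the 3 highest under 0.05 FPKM in the green tip, and genes of the study's lists in or near the set. No run reached 3 genes, so the pairs named, like groups and neighbours, were chosen after their values were seen. Alternatives were other limits (1 and 10 FPKM in the white base, under 0.1 and 0.5 FPKM in the green tip), columns rescaled to 1000000 (TPM), quantile normalization, other identifier distances, 5 or 20 classes, a pseudocount of 0.1, and no filter or a mean over 1 FPKM. Python 3.11.15, numpy 2.4.6, pandas 2.3.3 and matplotlib 3.10.9 were used, and the calculations were tested on simulated data.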

Additional observations from a re-analysis of the deposited data

How the results depend on the processing

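No paired analysis was possible because each tissue has a single deposited column, and no library could be left out for the same reason. Values were judged against a change of 1.5 times, and 24 of 36 alternative values of the main results stayed within it. Some of these could not move. Taking 5 or 20 classes changes only the shares at matched white base FPKM, so the set's own shares stayed the same by construction. With a white base minimum of 1 FPKM the set had 540 genes, 3.18% of the genes above that minimum, with a median of 3.20 FPKM. With a minimum of 10 FPKM it had 126 genes, 1.22% of the genes and a median of 21.7 FPKM. These follow from the limit itself. With a green tip limit of under 0.5 FPKM there were 782 genes (5.35%). Of them 13.0% had another at a consecutive identifier, against 5.34% at matched white base FPKM. With under 0.1 FPKM these shares were 11.3% and 2.95%, and with identifiers up to 5 apart, for the set as reported, 15.8% and 9.52%. TPM rescaling raised the share of neighbours called higher in the white base to 52.9%, but that of all genes to 42.1% and that at matched white base FPKM to 41.8%. Under every alternative run, both the share with a consecutive gene of the set and the share of neighbours higher in the white base were above those at matched white base FPKM. Without counts or transcript lengths, the number of reads behind a white base value of 3 FPKM and behind a green tip value of 0 is unknown.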

Other observations

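Exactly equal white base values were frequent at the lower end of the set, a pattern noticed in the values and not tested. From 3 to 5 FPKM in the white base, 10 of the 95 genes listed at 0 in the green tip shared their white base FPKM with another gene of the matrix to all printed digits (10.5%), against 13 of the 1382 genes above 0 in the green tip (0.941%). At 5 FPKM or more these shares were 4 of 197 (2.03%) and 184 of 12955 (1.42%). Aco008114, Aco028675, Aco030305 and Aco031136 all had 3.00317 FPKM in the white base. Aco001476, Aco011224 and Aco020624 all had 3.76072 FPKM, and Aco003344 and Aco025453 both had 3.43906 FPKM.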
